A study of Mus musculus with 6 samples.

Results

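The 8 genes Fcgbp, Zg16, Tff3, Agr2, Spink4, Bcas1, Klk1 and Sytl2 were taken by name as products of the goblet cell and its mucus granule, and all 8 were present among the 18049 genes of the table. They were measured by total RNA-Seq in colonic crypts of 3 Control and 3 GSK503-treated mice, with 1 library per mouse. All mice of both groups shared 1 genotype, with Cre under the Villin promoter, so that recombination is limited to Villin-expressing cells of the gut epithelium, and a knocked-in humanized TgfβRII allele with a poly(A) repeat. All were C57BL/6J and ate a Western-style diet from 8 weeks of age. GSK503, an inhibitor of the histone methyltransferase EZH2, was given at 200 μg/kg body weight in PBS into the tail vein for 9 weeks, and Control mice received captisol in PBS by the same route. Age at collection was not given in the sources used here.

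Goblet cells are the secretory cells of the intestinal epithelium that build the mucus layer. Their precursors depend on the transcription factor ATOH1, and their maturation depends on SPDEF. The gel-forming mucin is folded in the endoplasmic reticulum, glycosylated in the Golgi and packed into granules with smaller secreted proteins. Muc2, the gene of that mucin, was not analysed here.

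Values are given as normalized levels, that is, CPM of a TMM-scaled library size made from estimated counts, and the libraries held between 108162848 and 135085027 estimated counts. Ezh2 itself was at 46.7, 37.4 and 46.5 in Control mice 1 to 3 and at 36.6, 35.2 and 36.3 in GSK503 mice 1 to 3. Its log2 fold change of -0.27 did not pass the test (limma with Benjamini-Hochberg adjustment, adjusted p = 0.291), and because GSK503 acts on the enzyme, this mRNA is no check of the treatment. The X-inactivation transcript Xist was between 0.419 and 0.936 in Control mice and between 825 and 1236 in GSK503 mice, while the Y-linked gene Uty was between 42.5 and 53.7 in Control mice and between 0.670 and 1.08 in GSK503 mice. These genes separated the groups completely, so treatment and sex cannot be told apart in any comparison here. Markers of smooth muscle summed to 26.8, 115 and 55.7 in the Control mice and to 5.25, 5.03 and 158 in the GSK503 mice. Markers of B cells and plasma cells summed to 197, 341 and 124 in Control and to 9.89, 5.78 and 367 in GSK503 mice, so that Control mouse 2 and GSK503 mouse 3 stood highest for both lists.

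Promoter windows, the 250 bases before the RefSeq start, were taken from RefSeq (GRCm38.p6) to show what lies upstream of goblet products, and Fcgbp, Agr2 and Klk1 had an entry. Each was found exactly once on its chromosome in GRCm39, all on the plus strand: Fcgbp at chr7:27770411-27770660, Agr2 at chr12:36042674-36042923 and Klk1 at chr7:43874534-43874783. Capitals mark matches to the motifs described after the sequences.
Fcgbp: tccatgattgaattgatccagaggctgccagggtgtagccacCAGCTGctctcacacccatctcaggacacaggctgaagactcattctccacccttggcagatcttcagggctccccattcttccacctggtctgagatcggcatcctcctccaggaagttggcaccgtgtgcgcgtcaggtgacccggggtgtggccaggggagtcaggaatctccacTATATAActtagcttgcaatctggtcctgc
Agr2: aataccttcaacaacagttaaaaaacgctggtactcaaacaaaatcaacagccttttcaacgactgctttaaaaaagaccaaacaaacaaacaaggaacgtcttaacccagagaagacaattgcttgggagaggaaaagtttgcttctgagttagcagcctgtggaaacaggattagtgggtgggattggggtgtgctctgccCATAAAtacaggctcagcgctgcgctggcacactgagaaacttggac
Klk1: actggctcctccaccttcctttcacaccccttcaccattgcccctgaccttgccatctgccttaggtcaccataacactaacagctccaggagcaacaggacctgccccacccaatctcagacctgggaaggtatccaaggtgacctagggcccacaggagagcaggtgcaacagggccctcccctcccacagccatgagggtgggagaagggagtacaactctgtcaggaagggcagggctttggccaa

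The motifs were searched on both strands in these windows and in all 32851 RefSeq windows of the same length. Fcgbp held the E-box CAGCTG, a form bound by ATOH1 with its partners, at bases -208 to -203 from the start, and 13% of all windows hold this word. It also held TATATAA at -30 to -24, a TATA box variant that was added after the sequences had been read and that 3.04% of windows hold. Agr2 held TTTATG, the word bound by CDX factors, on the minus strand at -47 to -42, as 10.8% of windows do, and its RefSeq start lies 20 bases downstream of the annotated GENCODE start. The last 59 bases of the Klk1 window lie inside the GENCODE gene, which has a transcript starting upstream of the canonical one. Klk1 held none of the words searched, which were also TGTTTAC for forkhead factors (3.17% of windows), TATAAA (12.4%), CCACG for XBP1 and ATF6 (28.3%) and GGATGT for SPDEF (9.46%). TATAAA and TATATAA overlap in their letters, and a match is only a description of these letters. The windows of Fcgbp and Agr2 held 5 CpG each and that of Klk1 held 0, beside a median of 6 over all windows, of which 7.87% hold 0.

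All 8 genes had a higher mean in GSK503 than in Control crypts, with a median log2 fold change of 0.75 beside -0.01 over the 16670 genes tested. At an adjusted p below 0.05 and a log2 fold change beyond 0.25 (limma, Benjamini-Hochberg adjustment), Spink4 and Tff3 rose, that is 2 of 8, where 0.498% of all genes tested were called higher and 0.144% lower. At an adjusted p below 0.1, 7 of 8 passed, beside 1.41% of all genes. In 7 of 8 every GSK503 mouse was above every Control mouse, which held for 9.84% of all genes. The genes were chosen with earlier results of these data known, so these shares describe them and are no test. In bulk crypt RNA, more goblet cells and more RNA per goblet cell cannot be told apart. With 3 mice against 3, the exact permutation test on a single gene cannot go below 0.1.

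**Figure D1:**
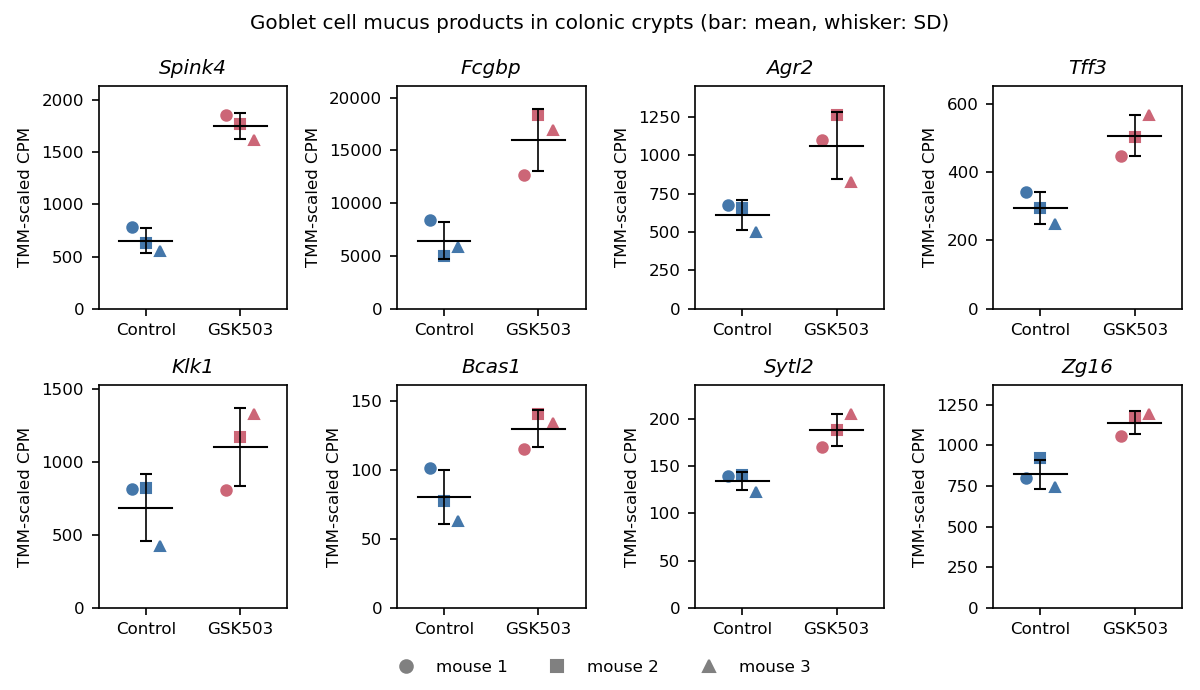
Normalized level (TMM-scaled CPM, linear axes from 0) of the 8 genes in each mouse, with the group mean as a bar and the SD as a whisker, n = 3 per group. All GSK503 points lie above all Control points in 7 panels, and in the Klk1 panel the groups overlap.

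Spink4, a Kazal-type serine protease inhibitor secreted by goblet cells, moved furthest. Its normalized level was 782, 629 and 549 in Control mice 1 to 3 and 1857, 1774 and 1614 in GSK503 mice 1 to 3. The groups lay far apart, with the lowest GSK503 mouse 2.06 times the highest Control mouse. The log2 fold change was 1.43 (SE 0.13, 95% confidence interval 1.13 to 1.74), with an adjusted p = 0.00164 from limma with Benjamini-Hochberg adjustment. This call held with each single mouse left out, with adjusted p between 0.00146 and 0.0183 (limma), and was lost when limma was run without an intensity trend (adjusted p = 0.0805).

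Tff3, the trefoil factor that protects and restores the mucosal surface, was at 343, 295 and 246 in Control and at 447, 504 and 566 in GSK503 mice. The groups did not overlap, and the log2 fold change was 0.79 (SE 0.13, limma adjusted p = 0.0325). The call was lost without Control mouse 2 (limma adjusted p = 0.104), Control mouse 3 (0.0670), GSK503 mouse 2 (0.167) or GSK503 mouse 3 (0.0507). It was also lost with epithelial markers held equal (0.0666) and without an intensity trend (0.224).

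Fcgbp, which encodes a large protein of the mucus network first known for binding the Fc part of IgG, took up the largest share of counts of the 8. It reached 8436, 5010 and 5886 in Control mice and 12718, 18361 and 16899 in GSK503 mice. The groups did not overlap, but the mice within a group varied more than for Spink4, with a coefficient of variation of 27.6% in Control and 18.3% in GSK503. Its log2 fold change of 1.33 (SE 0.26) had a limma adjusted p = 0.0598 and so missed the threshold of 0.05.

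Zg16, a lectin that binds Gram-positive bacteria in mucus, was at 799, 922 and 746 in Control and at 1061, 1168 and 1192 in GSK503 mice. The difference was among the smallest of the 8, with a log2 fold change of 0.48 (SE 0.11, limma adjusted p = 0.0875), although no GSK503 mouse fell within the Control range.

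Agr2, a member of the protein disulfide isomerase family needed for mucin folding, was at 674, 659 and 497 in Control and at 1099, 1261 and 827 in GSK503 mice. GSK503 mouse 3 stood closest to the Control mice. The log2 fold change was 0.79 (SE 0.17, limma adjusted p = 0.0753).

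Sytl2, a Rab27 effector that docks secretory granules, was at 139, 141 and 123 in Control and at 171, 189 and 205 in GSK503 mice. Its spread within Control was the narrowest of the 8 (coefficient of variation 7.34%), and the groups did not overlap. The log2 fold change of 0.48 (SE 0.09) had a limma adjusted p = 0.0505.

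Bcas1, a goblet cell marker, was at 101, 77.5 and 62.6 in Control and at 115, 140 and 134 in GSK503 mice. The groups were separate by a narrow margin, with a log2 fold change of 0.71 (SE 0.16, limma adjusted p = 0.0806). Its exons overlap the antisense gene Bcas1os2, whose level was at most 0.704 in any mouse. The library kit was stranded, but the strand setting used in counting was not given in the sources used here.

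Klk1, tissue kallikrein, a secreted serine protease, was at 815, 819 and 422 in Control and at 808, 1171 and 1324 in GSK503 mice. The groups overlapped, since GSK503 mouse 1 lay just below Control mice 1 and 2. The log2 fold change of 0.72 (SE 0.26) did not pass (limma adjusted p = 0.279), and the two-sided exact permutation p was 0.3. Klk1 has similar Klk1b copies, whose sequences were not compared here, so its reads are uncertain to that extent. Among the Klk1b genes tested, the highest value in any mouse was 14.1.

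**Figure D2:**
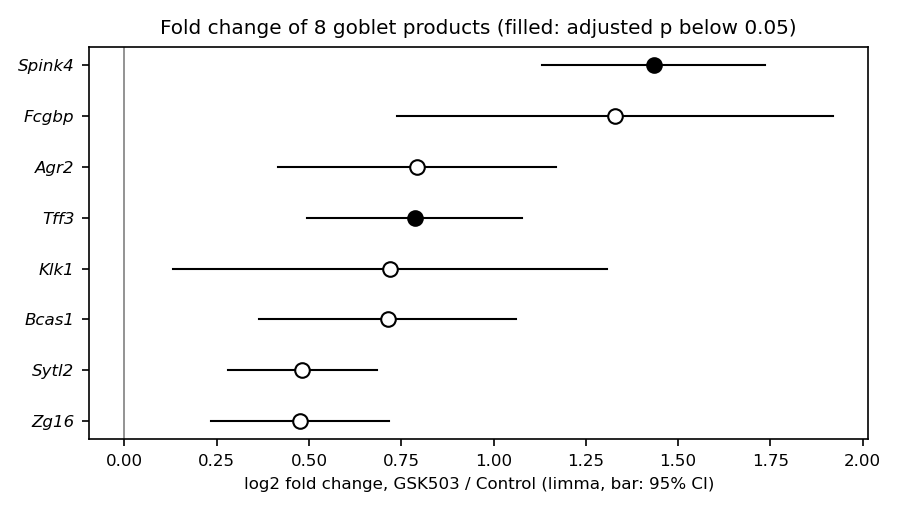
Log2 fold change of GSK503 over Control for the 8 genes (horizontal axis), with bars for the 95% confidence interval from limma, n = 3 per group. Filled points are Spink4 and Tff3, the genes with an adjusted p below 0.05, and all 8 points lie to the right of 0.

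Control mouse 3 was the lowest Control for 7 of 8 genes and GSK503 mouse 1 the lowest GSK503 mouse for 6 of 8. The highest mouse varied more, with Control mouse 1 highest for 5 genes and Control mouse 2 for 3, and GSK503 mouse 3 highest for 4, mouse 2 for 3 and mouse 1 for 1. Counting error was at most 1.12% of any value, well under the spread between mice. Together the 8 genes made up 1.23%, 0.874% and 0.874% of the library in Control mice and 1.71%, 2.28% and 2.20% in GSK503 mice. Fcgbp supplied 58.6% to 74.7% of that sum, and without it the share was 0.271% to 0.372% in Control and 0.521% to 0.577% in GSK503 mice, again with no overlap.

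Levels of different genes were compared per kilobase of the canonical transcript (GRCm39, GENCODE vM39). In Control crypts the order of mean level per kilobase was Zg16 at 1161 (SD 127, n = 3), Spink4 at 1111 (SD 202), Fcgbp at 813 (SD 224), Agr2 at 776 (SD 125), Klk1 at 718 (SD 239) and Tff3 at 597 (SD 97.4). Spink4 and Fcgbp differed by more than the SD of either, with ranges that overlapped (933 to 1330 for Spink4 and 632 to 1064 for Fcgbp), and the other neighbours among these 6 differed by no more than the larger of their SDs. Bcas1 at 26.0 (SD 6.31) and Sytl2 at 18.5 (SD 1.36) were much lower, and their ranges did not overlap (20.3 to 32.8 for Bcas1 and 16.9 to 19.4 for Sytl2). In GSK503 crypts Spink4 came first at 2973 (SD 210), ahead of Fcgbp at 2017 (SD 369), Zg16 at 1611 (SD 99.0), Agr2 at 1352 (SD 279), Klk1 at 1154 (SD 278), Tff3 at 1026 (SD 121), Bcas1 at 42.0 (SD 4.24) and Sytl2 at 25.8 (SD 2.35). Spink4 and Fcgbp, Fcgbp and Zg16, and Bcas1 and Sytl2 differed by more than the larger SD of the pair, as did Tff3 and Bcas1, and the other neighbours differed by less. Among 17212 genes matched to the annotation, Spink4 moved from rank 30 to rank 9 and Fcgbp from rank 47 to rank 18.

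Spink4 (chr4:40920044-40931396) and Agr2 (chr12:36042904-36054086) lie on the plus strand, as do Fcgbp (chr7:27770661-27820287), Klk1 (chr7:43874725-43879048) and Sytl2 (chr7:89951453-90059927). Zg16 (chr7:126649302-126686500), Tff3 (chr17:31344280-31348620) and Bcas1 (chr2:170188911-170269765) lie on the minus strand, so 4 of the 8 genes are on chromosome 7. Coordinates are those of GENCODE vM39 in GRCm39, and each value covers the whole gene.

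Ratios between genes of the same library do not depend on scaling. Of the 28 pairs among the 8 genes, 10 had ratios that did not overlap between groups (35.7%), beside 21.8% of all pairs of genes with a mean level of at least 1. Spink4 was relatively higher in GSK503 mice in 5 of its 7 pairs and Fcgbp in 4 of 7, while Sytl2 was relatively lower in 3. Spink4 over Tff3 was 2.28, 2.13 and 2.23 in Control and 4.15, 3.52 and 2.85 in GSK503 mice. Sytl2 over Zg16, in contrast, was 0.174, 0.153 and 0.165 in Control and 0.161, 0.161 and 0.172 in GSK503 mice, with overlapping groups.

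Set against Atoh1, a comparison chosen after the values were seen, the 8 genes fell into different patterns. Zg16 over Atoh1 was 10.1 (SD 0.532, n = 3) in Control and 10.2 (SD 0.512) in GSK503 mice. Sytl2 over Atoh1 was 1.65 (SD 0.141) in Control and 1.67 (SD 0.0234) in GSK503 mice. Spink4 over Atoh1 was 9.56, 6.67 and 7.87 in Control and 18.3, 15.9 and 13.0 in GSK503 mice, and with Fcgbp and Tff3 it made up the 3 of 8 genes whose ratio was higher in every GSK503 mouse than in every Control mouse, beside 0.728% of all genes with a mean level of at least 1. Against Spdef, the ratios of Fcgbp and Spink4 were higher in every GSK503 mouse, 2 of 8 beside 0.415% of all genes. Zg16 over Spdef went the other way, at 10.0, 10.2 and 11.5 in Control and 9.27, 8.54 and 9.78 in GSK503 mice, so that 1 of 8 was lower in every GSK503 mouse, as were 79.9% of all genes. Atoh1 and Spdef were themselves higher in every GSK503 mouse than in every Control mouse. Against the epithelial gene Epcam, all 8 ratios were higher in every GSK503 mouse, beside 7.87% of all genes, with Klk1 separate by a narrow margin (lowest GSK503 mouse 0.411, highest Control mouse 0.405).

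**Figure D3:**
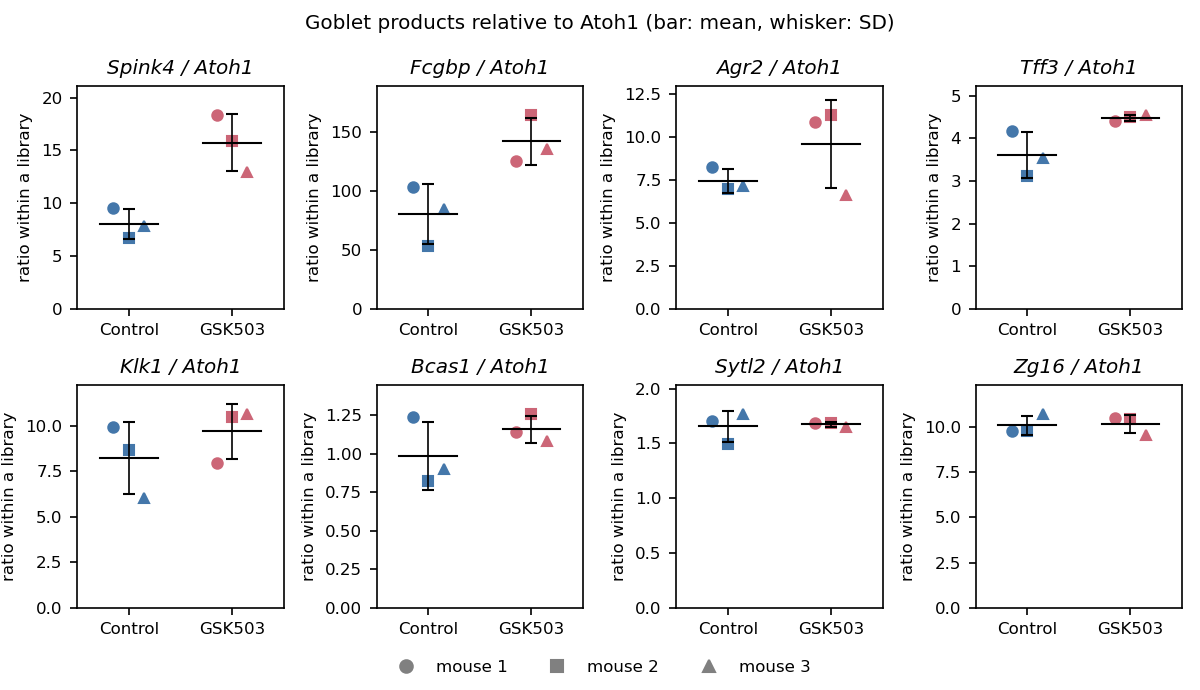
Ratio of each of the 8 genes to Atoh1 within a library (linear axes from 0), by mouse, with the group mean as a bar and the SD as a whisker, n = 3 per group. Spink4, Fcgbp and Tff3 separate the groups, while the group means of Zg16 and Sytl2 differ by less than 1 SD.

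The genes nearest to the average profile of the 8 over the 6 mice were Fmo1, Rasa4, Mx1, Trpm5 and Tbc1d16, with root mean square differences of 0.0374 to 0.0786 on the log2 scale, beside a median of 0.477 over 12789 genes. The same measure ran from 0.0727 for Tff3 to 0.321 for Spink4 among the 8 genes themselves. Trpm5 is a tuft cell channel, at 9.85, 8.56 and 7.49 in Control and 13.5, 15.4 and 14.0 in GSK503 mice.

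Other goblet cell products were listed by hand, as were the related lists below, with earlier results of these data known, so their counts are no test. Of the 13 present, 6 were called higher and 0 lower, beside 0.498% and 0.144% of all genes tested. Their median log2 fold change was 0.91. Clca1, a secreted metalloprotease of mucus, rose from 7984, 3147 and 3460 in Control to 15898, 25628 and 30267 in GSK503 mice, a log2 fold change of 2.38. Reg4, a lectin of deep crypt secretory cells, rose from 142, 92.0 and 89.1 to 870, 1050 and 939, a log2 fold change of 3.17. Ang4 (3.34), Itln1 (2.95), Retnlb (1.88) and Tpsg1 (1.14) rose as well on the log2 scale. Retnlb, a bactericidal resistin-like protein, went from 218, 125 and 116 to 564, 586 and 484. Of these 6 genes, 5 had a larger log2 fold change than Spink4, and the difference between genes was not tested.

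Among 11 transcription factors listed for goblet cells or for the choice of secretory fate, 1 was called higher, beside 0.498% of all genes tested. Spdef rose from 79.7, 90.3 and 65.0 in Control to 114, 137 and 122 in GSK503 mice (log2 fold change 0.68, limma adjusted p = 0.0459). Atoh1 was at 81.8, 94.2 and 69.7 in Control and 101, 112 and 124 in GSK503 mice (0.46, limma adjusted p = 0.123). The forkhead factors Foxa2 (log2 fold change 0.48, limma adjusted p = 0.0505) and Foxa3 (0.69, 0.0732) did not pass, nor did Gfi1 (0.68, 0.162), a factor that acts in the choice between secretory fates. Klf4, a factor of goblet cell maturation, had a log2 fold change of 0.04 (SE 0.11).

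Genes of ER folding and mucin maturation gave 2 calls of 28, Manf (log2 fold change 0.42) and Ern2 (0.38), the latter a stress sensor of mucus-secreting cells. Of 30 genes of mucin O-glycosylation, Chst4 (0.55) and St3gal4 (0.75) were called. The granule docking and exocytosis list gave 4 calls of 31. Rab27a, a GTPase whose effectors include Sytl2, was at 33.7, 31.3 and 29.0 in Control and 46.3, 55.7 and 49.6 in GSK503 mice. Rab27b (0.65), Mlph (0.58) and the actin-severing Scin (1.48) also rose on the log2 scale. No gene of these lists was called lower, and their medians were 0.23, 0.10 and 0.17. Over all genes tested, 0.498% were called higher. Of the paralogs of the 8 genes, Spink5 was the 1 called among 15 tested, at a level of at most 2.16, and their median was 0.07.

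**Figure D4:**
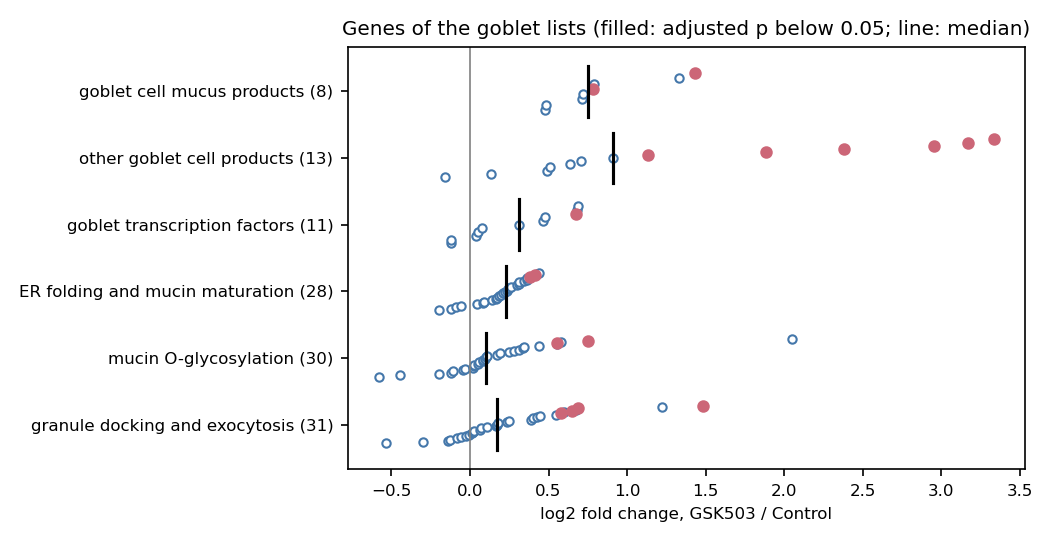
Log2 fold change of GSK503 over Control for each tested gene of the 8 products and 5 related lists (number of genes in brackets), with filled points for an adjusted p below 0.05 and a line at the list median. The medians run from 0.10 for O-glycosylation to 0.91 for other goblet products.

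Markers of other epithelial cells gave the setting. General epithelial markers summed to 11140 to 12584 in Control and 12053 to 14067 in GSK503 mice, with 0 of 6 called. Enteroendocrine markers summed to 219 to 272 in Control and 143 to 182 in GSK503 mice, and Chgb, Gcg and Chga fell, 3 of 10. Over all genes tested, 0.144% were called lower and 0.498% higher. Tuft cell markers summed to 30.8 to 46.7 in Control and 56.7 to 68.2 in GSK503 mice, with 0 of 7 called at 0.05. At 0.1, 2 of 7 passed, beside 1.41% of all genes. All 7 were positive, with a median log2 fold change of 0.72. Markers shared with Paneth cells summed to 14.0 to 50.5 and 141 to 221, with Pnliprp2 and Itln1 called higher. Itln1 is also on the list of other goblet products. The Paneth-defining Lyz1 was at most 3.10 in any mouse. Defa24 was at 0 in every Control mouse and at 0.466, 0.175 and 0.840 in GSK503 mice, so it passed the filter only through the GSK503 mice. Its log2 fold change of 2.40 was not called at 0.05 but passed at 0.1 (limma adjusted p = 0.0875). Lyz1 had a log2 fold change of -0.67 (limma adjusted p = 0.591) and Mmp7 of 0.56 (limma adjusted p = 0.564), and neither was called. Of 4 markers of deep crypt secretory cells, Reg4 and Spdef were called higher, and both are also on the goblet lists above. Cd177 was at 763, 890 and 773 in Control and at 692, 738 and 536 in GSK503 mice. Its log2 fold change of -0.31 was not called (limma adjusted p = 0.337), nor was that of Kit (0.15, limma adjusted p = 0.711). No gene of the remaining cell type lists was called at 0.05. Markers of distal colon position had a median log2 fold change of 0.30, with 6 of 6 positive. They summed to 150 to 175 in Control and 176 to 203 in GSK503 mice, with no overlap by a narrow margin. Absorptive colonocyte markers had a median log2 fold change of 0.12, with 8 of 12 positive. They summed to 10067 to 14152 in Control and 8395 to 11391 in GSK503 mice. Muc3, the most abundant of them, was lower in every GSK503 mouse (log2 fold change -0.69, limma adjusted p = 0.223). Without Muc3 the other colonocyte markers summed to 4455 to 4729 in Control and 3526 to 7001 in GSK503 mice. Stem and progenitor markers had a median of -0.04, with 3 of 8 positive. They summed to 817 to 854 in Control and 704 to 784 in GSK503 mice, with no overlap. Slc12a2, the most abundant of them, was lower in every GSK503 mouse (log2 fold change -0.23, limma adjusted p = 0.245). Without Slc12a2 the other stem and progenitor markers summed to 345 to 364 in Control and 315 to 377 in GSK503 mice, with overlap. The part of these lists in the values of the 8 genes was not tested. With Control mouse 2 and GSK503 mouse 3 left out, the libraries with the most muscle and plasma cell RNA, the median log2 fold change of the 8 genes was 0.72, and 1 of 8 was called at 0.05 and 2 at 0.1.

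**Figure D5:**
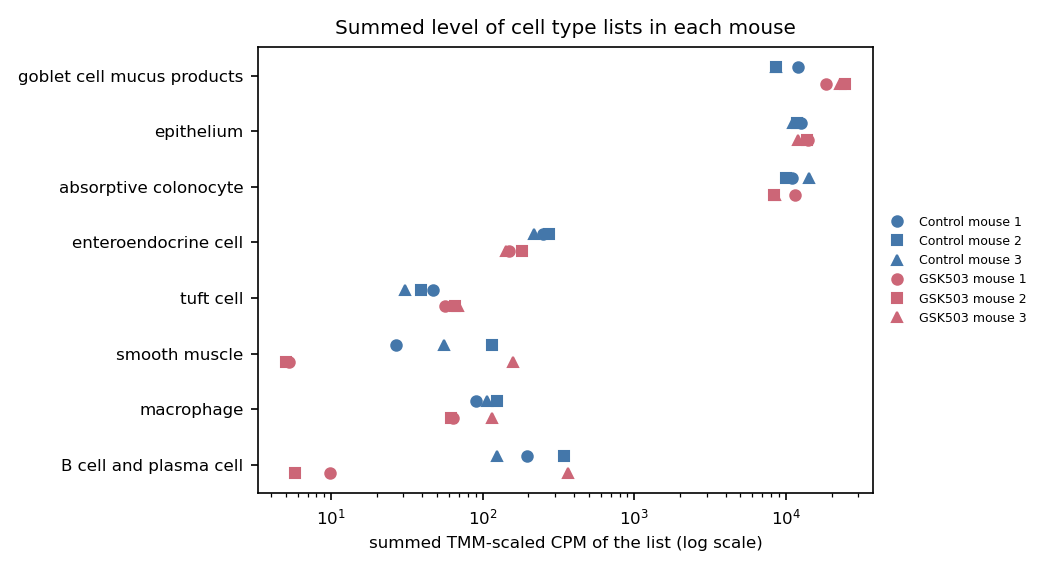
Summed normalized level of marker lists in each mouse (log axis), Control in blue and GSK503 in red. The sum of the 8 goblet products runs from 8531 to 12090 in Control and from 18274 to 24568 in GSK503 mice, and smooth muscle and B cell markers are highest in Control mouse 2 and GSK503 mouse 3.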

How the data were processed

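Total RNA from colonic crypts of 3 Control and 3 GSK503 mice was sequenced, with groups taken from the sample labels. The authors used STAR for alignment to GRCm39, RSEM for estimated gene counts and edgeR for TMM scaling. The deposited signal values are CPM of a TMM-scaled library size, made from those estimated counts, and are not whole, so a count test was not used, although the study used edgeR. Library totals were estimated from the smallest step between low values; 75.1% to 78.0% of values were whole multiples of it within 0.01. Testing was limited to genes that reached 0.1 in 3 or more samples and was done with limma 3.58.1 (R 4.3.3, lmFit and eBayes with an intensity trend) on log2(value + 0.1), with Benjamini-Hochberg adjustment over all genes tested. Fold changes are on that scale. A call needed an adjusted p below 0.05 and a log2 fold change beyond 0.25. The test was checked on simulated data. The 8 genes are all named; from each related list, up to 6 genes with the smallest p and up to 3 with the highest mean could be named. The 5 nearest profiles were sought among genes with a mean of at least 1. The members and lists were chosen with earlier results of these data known. Scaling, filter, pseudocount, variance trend, replicate block, test and left-out mice were varied. Figures were drawn with matplotlib 3.10.9. Part of the genotype that all mice shared is not reported here.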

Additional observations from a re-analysis of the deposited data

How the results depend on the processing

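All 8 genes kept a positive log2 fold change under all 20 alternatives, and over single genes 142 comparisons kept their side of the threshold, 9 lost a call, 9 gained one and 0 reversed. The median log2 fold change stayed within the spread between mice, at 0.60 to 0.88 with 1 mouse left out. Of the 8 genes, 2 were called at 0.05 and 7 at 0.1. These counts became 1 and 4 with epithelial markers held equal, and 0 and 1 without the intensity trend, where Spink4 had a limma adjusted p = 0.0805. The count at 0.05 was 4 with a level of at least 1 in all 6 samples and 4 with robust eBayes. With 1 mouse left out, 1 to 3 were called at 0.05 and 1 to 5 at 0.1, with 1 at 0.05 without Control mouse 2, Control mouse 3 or GSK503 mouse 2. Leaving out both Control mouse 2 and GSK503 mouse 3, chosen after seeing the data, gave 1 and 2. The cause of these shifts was not tested. Deviations of same-numbered mice correlated at -0.12, 0.02 and -0.10, and those of differently numbered mice at -0.17 to 0.26. These values gave no sign that replicate numbers pair the samples, but with 3 mice per group they cannot exclude it. With the replicate number as a block, 2 were called at 0.05 and 2 at 0.1, Spink4 (limma adjusted p = 0.00584) and Agr2 (0.0409), while Tff3 was not (0.123). Scaling by library size alone moved the median of all genes to -0.12 and gave 83 genes higher and 178 lower, beside 83 and 24.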
